A study of Macaca mulatta with 7 samples.

Results

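Glycolysis in sperm runs partly on isozymes that only germ cells make. GAPDHS, PGK2 and LDHC are the germ-cell forms of glyceraldehyde-3-phosphate dehydrogenase, phosphoglycerate kinase and lactate dehydrogenase, and GAPDH, PGK1, LDHA and LDHB are the somatic forms of the same 3 enzymes. These 7 genes were taken by name from the gene table of RNA from rhesus macaque (Macaca mulatta) sperm, which held 18282 analysed genes. Each germ-cell isozyme was set against its somatic counterpart within the same library, in reads and in the fraction of the exons covered by reads.

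The libraries came from 3 animals labelled Maltreated, 5.67 to 5.78 years old, and 4 labelled Control, 5.72 to 5.92 years old. The labels say no more of what the Maltreated animals went through, and the series title sets the comparison within the study of early life stress. All 7 samples were sperm cells passed through a PureSperm 40/80 gradient, which separates sperm from lighter cells, with total RNA taken by TRIzol extraction. Each library is 1 sperm sample with an age of its own, so the spread between libraries holds both animal and technical variation.

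As background, the isozymes act in the later part of the pathway that yields ATP in the sperm tail. GAPDHS is anchored to the fibrous sheath of the principal piece, PGK2 makes ATP in the next step, and LDHC turns pyruvate into lactate and restores NAD. PGK2 is a copy of X-linked PGK1 that arose through its mRNA and so has no introns, and it is used when the X chromosome is silent in meiosis and after. LDHC lies beside LDHA, from which it is thought to descend, while LDHA and LDHB encode the muscle-type and heart-type subunits of somatic lactate dehydrogenase. Mature sperm make little or no new RNA, so their RNA is largely what the spermatid left behind.

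Reads on the strand of an annotated gene (sense reads) numbered 6160996 to 30715268 in the Maltreated libraries and 5316383 to 9847743 in the Control libraries. Sperm and late spermatid markers summed to 47272 to 100544 CPM (counts scaled to the total of sense reads) in Maltreated libraries and 48467 to 61609 in Control libraries, led by the protamine PRM2 in each library. Of 20 such markers 20 had reads in every library but Control 4, where SPACA1 and SPACA3 had none. Leukocyte markers set 2 libraries apart. The 19 markers summed to 27.3, 78.1 and 1122 CPM in Maltreated 1 to 3 and to 21.9, 21.3, 58.6 and 791 CPM in Control 1 to 4. Reads fell on 17, 15 and 17 of the 19 in Maltreated and on 10, 11, 14 and 15 in Control libraries. CD2 and MS4A1 had none in Maltreated 3, and FCER1G, MS4A1, CD79A and S100A8 had none in Control 4. PTPRC, the common leukocyte antigen, had reads in all 7 libraries. Markers of epithelium and accessory glands reached 297 CPM in Control 2 and at most 33.7 CPM elsewhere. Markers of earlier germ cells summed to 474 to 718 CPM in Maltreated and 528 to 583 CPM in Control libraries, those of testis somatic cells to at most 42.4 CPM in Maltreated and 95.2 CPM in Control libraries, and those of erythroid cells to at most 14.2 CPM in Maltreated and 36.5 CPM in Control libraries. Results that rest on Maltreated 3 or Control 4 are therefore given with and without them.

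The files give coordinates without a named genome build, and all 7 genes are counted over annotated exons. GAPDHS lies at chr19:31087258-31099799 on the plus strand, with 11 exons of 1468 bases in all. PGK2 is a single exon of 1253 bases at chr6:50738580-50739832 on the minus strand. LDHC has 7 exons of 1125 bases at chr11:47718240-47766775 on the minus strand. LDHA has 8 exons of 2038 bases at chr11:47770343-47783923 on the same strand, and 3567 bases lie between its 3′ end and the 5′ end of LDHC. GAPDH has 9 exons of 1364 bases at chr12:6755427-6759433 on the plus strand, PGK1 has 11 exons of 2389 bases at chrX:71877145-71900644 on the plus strand, and LDHB has 7 exons of 1206 bases at chr12:22485874-22505417 on the minus strand. The table lists 7 of the 9 GAPDH exons 2 times, so its deposited count holds their reads 2 times. Levels below are in CPM of sense reads per kb of exon. They use the deposited counts, and for GAPDH the values with each exon counted once are given as well. The other isozymes have no repeated exon. Over all genes 43070 of 233648 exon entries repeat another, so levels of genes outside the set may also be raised by repeats. A read on several exons counts on each, so read numbers of a gene are sums over its exons. None of the 7 genes overlaps another listed gene. GAPDH, PGK1 and LDHA have processed copies elsewhere in primate genomes. No source used here says how reads that match several places were treated, so the levels of these genes are uncertain where such copies share reads.

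GAPDHS was by far the most abundant of the 7 isozymes. It had 10375, 2655 and 3617 sense reads in Maltreated 1 to 3, and 3607, 3047, 2412 and 2517 in Control 1 to 4. Its level was 230, 294 and 230 CPM per kb in Maltreated and 250, 375, 274 and 323 in Control libraries. This level varied least of the 7 (SD of 0.26 on the log2 scale, n = 7), and it put GAPDHS between rank 127 and rank 232 of all 18282 genes. The ranks use deposited counts, in which repeated exons can raise other genes but not GAPDHS.

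GAPDH, its somatic counterpart, had 280, 124 and 1665 deposited sense reads in Maltreated 1 to 3 and 38, 60, 22 and 327 in Control 1 to 4. Its level was 6.68, 14.8 and 114 CPM per kb in Maltreated and 2.83, 7.96, 2.69 and 45.1 in Control libraries. With each exon counted once the level was 3.34, 7.62 and 72.1 in Maltreated and 1.49, 3.98, 1.47 and 23.0 in Control libraries. The 2 high libraries, Maltreated 3 and Control 4, are those with the high leukocyte markers. Deposited antisense counts of GAPDH were 102, 4 and 14 in Maltreated and 24, 20, 24 and 8 in Control libraries. This was up to 52.2% of its count (Control 3), against at most 2.21% for GAPDHS. The GAPDH counts hold the 7 repeated exons 2 times, and GAPDHS has no repeated exon. In Maltreated 1 each GAPDH exon had only 6 or 7 antisense reads, and in Control 3 at most 5. The percentages are therefore of summed counts, and few antisense reads may lie behind them.

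GAPDHS exceeded GAPDH per kb in 7 of 7 libraries, by 34.4, 19.8 and 2.02-fold in Maltreated 1 to 3 and by 87.1, 46.8, 99.6 and 7.14-fold in Control 1 to 4. The mean log2 ratio was 4.56 ± 2.03 (SD, n = 7), a geometric mean of 23.5-fold (two-sided exact sign-flip permutation test over libraries, p = 0.015625, adjusted p = 0.025 over 8 tests). A p of 0.015625 is the smallest that 7 libraries can give, and an adjusted p of at most 0.05 was taken as the threshold. Counting each GAPDH exon once gave folds of 68.6, 38.3 and 3.20 in Maltreated and 164, 92.8, 179 and 14.0 in Control libraries. These are larger in each library, so the mean of 23.5-fold from the deposited counts is the lower of the 2 versions. Leaving out Maltreated 3 and Control 4 together raised the mean log2 ratio to 5.61, where 5 libraries cannot give a p under 0.0625. The part of the leukocyte RNA in the low ratios of these 2 libraries was not tested. GAPDHS exons were covered in full in every library but Maltreated 2, at 82.9%. GAPDH exons were covered to 83.3, 42.7 and 100% in Maltreated and 36.8, 46.2, 31.1 and 48.1% in Control libraries, as deposited with repeated exons counted 2 times. With each exon counted once, 1054, 589 and 1364 of its 1364 bases were covered in Maltreated and 514, 585, 442 and 657 in Control libraries. The deposited covered fraction was higher for GAPDHS in 6 libraries and equal in Maltreated 3, by 0.421 ± 0.252 on average (SD, n = 7; exact sign-flip permutation test, adjusted p = 0.0417). With any 1 library other than Maltreated 3 left out, the mean difference was 0.377 to 0.463 and the adjusted p of the same exact test was 0.0833.

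The GAPDHS reads were concentrated in 3 exons near the 5′ end. The exons at chr19:31090667-31090846, chr19:31092500-31092595 and chr19:31092770-31092875, the second to the fourth from the 5′ end, make up 382 of the 1468 bases. They held 70.4, 87.3 and 89.6% of the summed exon counts in Maltreated 1 to 3 and 87.5, 92.5, 89.1 and 71.9% in Control 1 to 4. Per kb they stood 8.23, 22.8 and 29.0 times higher than exons 5 to 11 in Maltreated libraries and 25.3, 44.3, 25.98 and 17.6 times higher in Control libraries. The exon with most reads was the fourth in all 7 libraries, and the profile dropped between the fourth and the fifth in each. Reads that join these short exons would count on each of them, which raises their share. These exon groups were chosen after their values were seen, so no test of the profile is given.

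Outside these 3 exons GAPDHS stood nearer to GAPDH. The other 8 exons, 1086 bases with the first exon included, had 3074, 337 and 377 GAPDHS reads in Maltreated 1 to 3 and 451, 230, 263 and 707 in Control 1 to 4. Per kb this was 13.8, 3.40 and 0.285 times the GAPDH level in Maltreated libraries and 14.7, 4.79, 14.7 and 2.71 times in Control libraries. With each GAPDH exon counted once, the same ratio was 27.5, 6.57 and 0.451 in Maltreated and 27.7, 9.49, 26.5 and 5.31 in Control libraries. GAPDHS was above GAPDH in 6 libraries and below it in Maltreated 3 in both versions. Because the exons left out were chosen for their many reads, a smaller ratio is fixed by that choice, and these values are a description without a test.

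**Figure D1:**
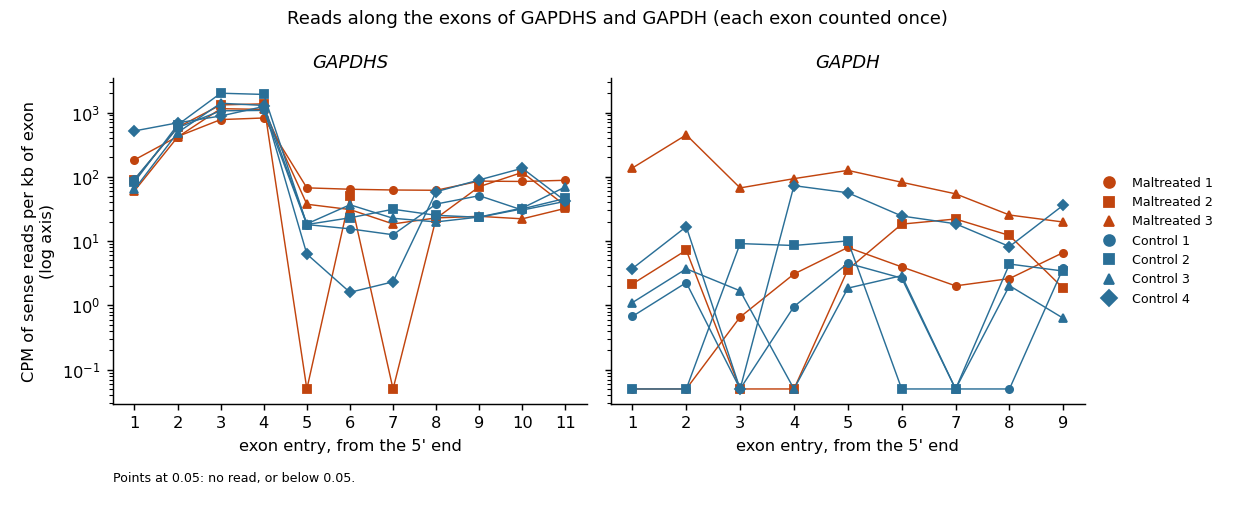
Level of each exon in CPM of sense reads per kb (log axis) along the 11 exons of GAPDHS and the 9 of GAPDH, each GAPDH exon counted once, in the 3 Maltreated and 4 Control libraries (1 line per library). The 3 GAPDHS exons from the second to the fourth stand above exons 5 to 11 in each library, and GAPDH is highest in Maltreated 3 over most exons.

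GAPDH itself was read differently in Maltreated 3. There its first 2 exons, 196 bases, held 437 of 1051 reads, with each exon counted once. In the other libraries these exons held 0 and 4 reads in Maltreated 1 and 2 and 2, 0, 2 and 7 in Control 1 to 4. In Maltreated 3 all 9 exons had reads, with 47 in the lowest, whereas each other library had between 1 and 4 exons without a read. Control 4, the other library with high GAPDH, had 160 of its 167 reads in exons 3 to 9.

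PGK2 was on average the second most abundant germ-cell isozyme, at 1069, 69 and 119 sense reads in Maltreated 1 to 3 and 174, 95, 125 and 537 in Control 1 to 4. Its level was 27.8, 8.94 and 8.88 CPM per kb in Maltreated and 14.1, 13.7, 16.6 and 80.6 in Control libraries. Control 4 stood highest, and its 537 reads fell on 633 of the 1253 bases. The exon was covered to 100, 100 and 84.8% in Maltreated and 90.7, 88.2, 53.1 and 50.5% in Control libraries. In Maltreated 3 LDHC stood slightly above PGK2, at 9.06 against 8.88 CPM per kb.

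PGK1 was scarce and uneven, with 33, 1 and 156 sense reads in Maltreated 1 to 3 and 89, 49, 11 and 5 in Control 1 to 4. Its level was 0.450, 0.0679 and 6.11 CPM per kb in Maltreated and 3.78, 3.71, 0.767 and 0.394 in Control libraries. Maltreated 3, Control 1 and Control 2 stood above the other 4. In these 3 libraries all 11 exons were listed as covered in full. In Control 1 exons 1 to 6 had 6 reads each and the other exons 6 to 17. In Control 2 exons 1 to 7 had 4 reads each and the other exons 5 or 6, whatever their length. A full covered fraction does not need many reads in these files. Of 28576 exons longer than 500 bases with exactly 1 read, 10888 (38.1%) are listed as covered in full.

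PGK2 exceeded PGK1 per kb in 7 of 7 libraries, by 60.9, 88.3 and 1.46-fold in Maltreated 1 to 3 and by 3.72, 3.68, 20.8 and 186-fold in Control 1 to 4, with 0.5 reads added to each count. The mean log2 ratio was 4.09 ± 2.69 (SD, n = 7), a 17.0-fold geometric mean (exact sign-flip permutation test, p = 0.015625, adjusted p = 0.025). In Maltreated 2 PGK1 had 1 read, and the ratio of 132 without added reads had a 95% exact interval of 22.8 to 5271, which covers counting error only. The ratio was smallest in the 3 libraries where all PGK1 exons were covered. The covered fraction did not separate the pair. PGK2 was covered more in 4 libraries and PGK1 in 3, and the mean difference was 0.315 ± 0.446 (SD, n = 7; exact sign-flip permutation test, adjusted p = 0.143).

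**Figure D2:**
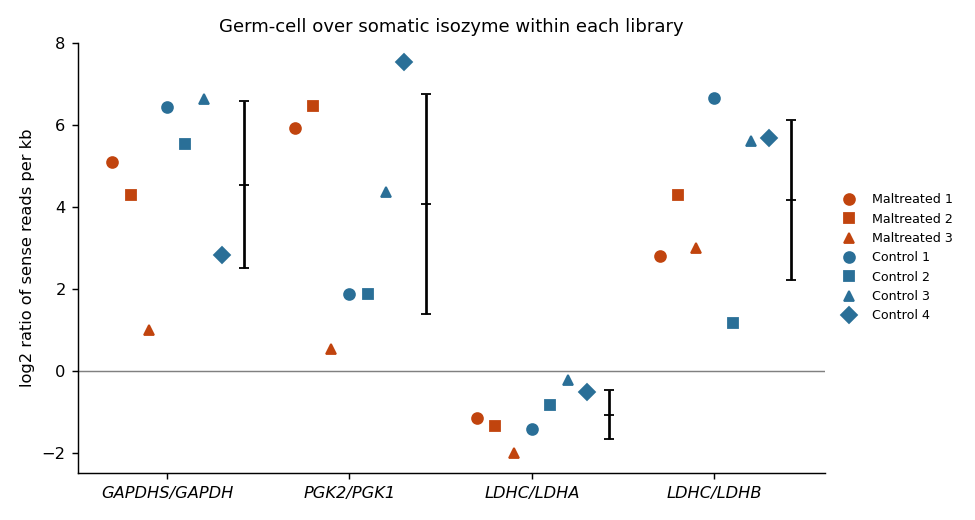
Log2 ratio of sense reads per kb of the germ-cell over the somatic isozyme within each of the 3 Maltreated and 4 Control libraries (0.5 reads added to each count), with mean and SD over 7 libraries at the right of each pair. GAPDHS/GAPDH, PGK2/PGK1 and LDHC/LDHB lie above 0 and LDHC/LDHA below 0 in 7 of 7 libraries.

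Lactate dehydrogenase went the other way, since the somatic LDHA exceeded the germ-cell LDHC. LDHC had 214, 27 and 109 sense reads in Maltreated 1 to 3 and 47, 51, 68 and 72 in Control 1 to 4. Its level was 6.19, 3.90 and 9.06 CPM per kb in Maltreated and 4.24, 8.20, 10.1 and 12.04 in Control libraries, a narrow range. In Control 4 the 72 reads fell on only 2 exons, 36 on each, and covered 83 of the 1125 bases.

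LDHA had 862, 125 and 795 sense reads in Maltreated 1 to 3 and 227, 166, 144 and 186 in Control 1 to 4. Its level was 13.8, 9.96 and 36.5 CPM per kb in Maltreated and 11.3, 14.7, 11.8 and 17.2 in Control libraries. Maltreated 3 was the highest, and the other 6 libraries lay within a range narrower than that of GAPDH. In Maltreated 3 the first 3 exons of LDHA held 275 reads (34.6%), whereas in the other libraries they held at most 63 reads and at most 7.31%.

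LDHC stood below LDHA per kb in 7 of 7 libraries, at 0.451, 0.397 and 0.249 of its level in Maltreated 1 to 3 and 0.378, 0.560, 0.859 and 0.704 in Control 1 to 4. The mean log2 ratio was -1.06 ± 0.60 (SD, n = 7), a geometric mean of 0.478 (exact sign-flip permutation test, p = 0.015625, adjusted p = 0.025). The covered fractions of the pair differed by -0.009 ± 0.113 (SD, n = 7), with 3 libraries on each side and 1 tie (adjusted p = 0.875 in the exact sign-flip permutation test). Without Control 4 the mean difference was 0.013, and without Maltreated 2 it was 0.009.

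LDHB, the heart-type subunit, was the scarcest of the set. It had 32, 1 and 14 sense reads in Maltreated 1 to 3 and 0, 24, 1 and 1 in Control 1 to 4. LDHC exceeded it in 7 of 7 libraries, with a mean log2 ratio of 4.18 ± 1.95 (SD, n = 7; exact sign-flip permutation test, adjusted p = 0.025). LDHC was also covered more in 7 of 7 libraries, by 0.409 ± 0.255 (SD, n = 7; exact sign-flip permutation test, adjusted p = 0.025). The covered fraction does not follow read number closely in these files. In Control 4 the covered bases were 83 for LDHC and 23 for LDHB. In the libraries where LDHB had more than 3 reads, LDHC was 7.08 and 8.10 times higher in Maltreated 1 and 3 and 2.25 times higher in Control 2. In Control 1, where LDHB had no sense read, LDHC was at least 16.8-fold higher, with 3 reads in that library as the floor. With Control 1 at this bound the mean log2 ratio was 3.81 ± 1.62 (SD, n = 7). Where LDHB had 1 read, the ratio was 28.9 in Maltreated 2 (95% exact interval 4.77 to 1185), 72.9 in Control 3 (12.6 to 2921) and 77.2 in Control 4 (13.4 to 3090), for counting error only. The intervals and the floor take each exon count as a separate read. Where 1 LDHC read counts on several exons, the intervals are too narrow and the floor is uncertain.

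The 3 lactate dehydrogenase genes share a run of 5 exons with the same lengths of 117, 173, 173, 117 and 123 bases, 703 in all, which allows a comparison free of differences in the ends. Over these exons LDHC had 187, 9 and 90 reads in Maltreated 1 to 3 and 25, 50, 58 and 72 in Control 1 to 4. LDHA had 723, 114 and 485 in Maltreated and 189, 140, 124 and 185 in Control libraries. LDHB had 28, 1 and 14 in Maltreated and 0, 18, 1 and 1 in Control libraries. LDHA led in each library, and the mean log2 ratio of LDHC over LDHA was -2.11, further from 0 than over all exons. This restriction was chosen after the data had been seen.

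**Figure D3:**
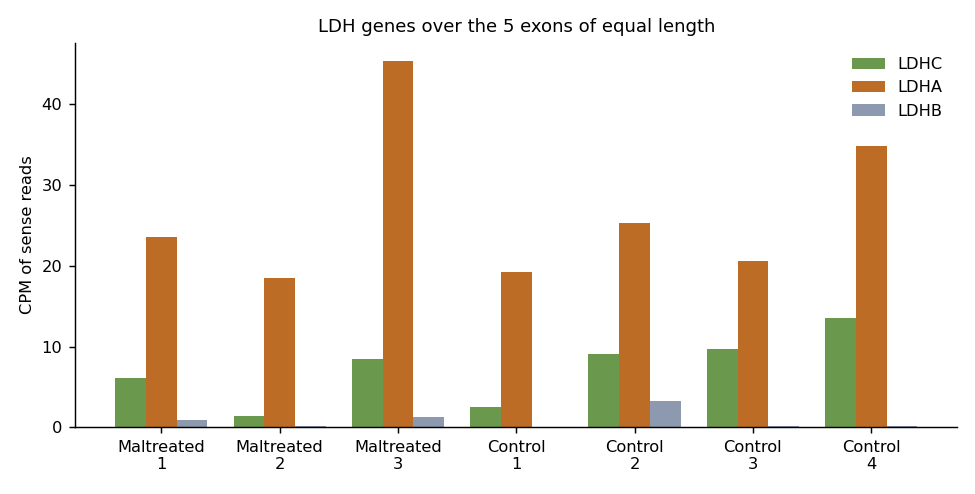
CPM of sense reads of LDHC, LDHA and LDHB over the 5 exons of equal length (703 bases), in the 3 Maltreated and 4 Control libraries (bars, 1 value per library, no error). LDHA is the highest and LDHB the lowest bar in each library.

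Across the 7 genes the order of the geometric mean levels over 7 libraries was GAPDHS at 278, PGK2 at 17.9, LDHA at 15.0, GAPDH at 11.8, LDHC at 7.18, PGK1 at 1.05 and LDHB at 0.395 CPM per kb. GAPDHS was above PGK2, and LDHC above PGK1, in 7 of 7 libraries. PGK2 and LDHA, LDHA and GAPDH, and GAPDH and LDHC each held their order in only 4 of 7 libraries, and PGK1 was above LDHB in 5 of 7. With each GAPDH exon counted once, GAPDH had a geometric mean of 6.32 and stood below LDHC, which was then above it in 4 of 7 libraries. LDHA was above LDHC in 7 of 7, as in the pair test. The other neighbours in the middle of the order are not separated beyond the spread between libraries. When the median exon stood for each gene, the 4 pair ratios kept their sign at log2 values of 3.13 for GAPDHS/GAPDH, 3.33 for PGK2/PGK1, -1.54 for LDHC/LDHA and 2.32 for LDHC/LDHB. None then passed the threshold, with adjusted p of 0.0625 to 0.104 in the exact sign-flip permutation test.

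Summed per kb, the germ-cell isozymes made up 92.4, 92.5 and 61.1% of the level of all 7 genes in Maltreated 1 to 3. In Control 1 to 4 they made up 93.7, 93.0, 95.1 and 86.9%. With each GAPDH exon counted once the shares were 93.5, 94.5 and 68.2% in Maltreated and 94.2, 93.9, 95.5 and 91.1% in Control libraries. In both versions the share was lowest in Maltreated 3 and next lowest in Control 4. With the deposited counts it lay between 92.4 and 95.1% in the other 5 libraries. GAPDHS alone gave 77.7 to 95.8% of the germ-cell sum, so this share is close to a statement about GAPDHS against the rest.

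**Figure D4:**
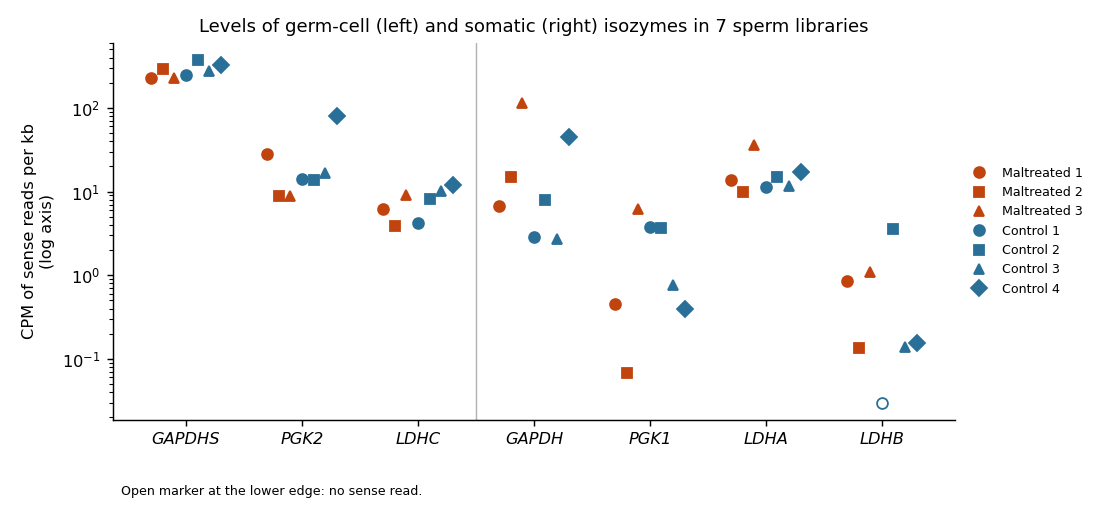
Level of each isozyme in CPM of sense reads per kb of exon (log axis), germ-cell isozymes left of the line and somatic isozymes right of it, in the 3 Maltreated and 4 Control libraries (1 point per library, with an open point at the lower edge for LDHB in Control 1, which had no read). GAPDHS lies between 230 and 375 in all 7 libraries, while GAPDH runs from 2.69 to 114.

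GAPDH and LDHA were highest in the library with most leukocyte marker RNA, Maltreated 3, and next highest in Control 4. PGK1 was highest in Maltreated 3 as well, but stood at 0.394 in Control 4, below its level of 3.78 and 3.71 in Control 1 and 2, where leukocyte markers summed to only 21.9 and 21.3 CPM. Among the germ-cell isozymes, GAPDHS was 230 in Maltreated 3 and 323 in Control 4, within the range of the other 5 libraries. PGK2 was at its lowest in Maltreated 3 (8.88) and at its highest in Control 4 (80.6). LDHC was at 9.06 in Maltreated 3 and at its highest, 12.04, in Control 4. Since these are bulk samples, fewer cells of a type and less RNA per cell cannot be told apart. The part of leukocyte RNA in the somatic isozyme levels was not tested.

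**Figure D5:**
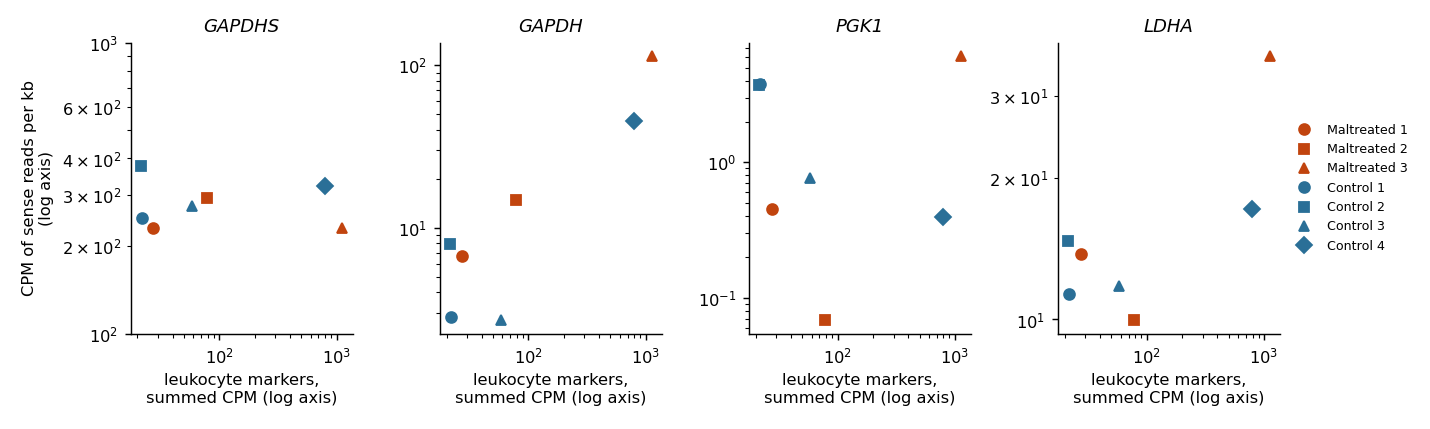
Levels of GAPDHS, GAPDH, PGK1 and LDHA in CPM of sense reads per kb of exon (log axes with a range of their own in each panel) against the summed CPM of 19 leukocyte markers (log axis), in the 3 Maltreated and 4 Control libraries (1 point each). GAPDH and LDHA are highest in Maltreated 3, the library with 1122 CPM of the markers, and GAPDHS is not.

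The study's own comparison asks whether maltreatment left a difference in sperm RNA. None of the isozymes was called. Of the 7 genes 6 passed the filter on low counts, all but LDHB, and 0 had an adjusted p under 0.05 in edgeR's quasi-likelihood test, against 0% of the 10719 genes tested. Without adjustment 191 genes (1.78%) had p under 0.05, none of them an isozyme, and DESeq2 called 3 genes lower in Maltreated sperm. The groups overlapped for all 6 tested isozymes, where 3.59% of the tested genes did not overlap (2.1% with Maltreated higher and 1.49% with Maltreated lower).

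GAPDHS averaged 251 ± 36.5 CPM per kb (SD, n = 3) in Maltreated and 305 ± 55.8 (SD, n = 4) in Control sperm, a log2 fold change (Maltreated over Control) of -0.30 ± 0.25 (SE). PGK2 had -1.03 ± 0.79 (SE), which was -0.002 without Control 4, -0.73 without Maltreated 3 and 0.30 without both. LDHC had -0.47 ± 0.81. Among the somatic isozymes GAPDH had 1.55 ± 1.11. This was -0.39 without Maltreated 3, 3.22 without Control 4 and 1.26 without both, and with age as a covariate it was 3.85. Both 3.22 and 3.85 had a p under 0.05 before adjustment, and their adjusted p in edgeR was 0.999 without Control 4 and 0.998 with age. LDHA had 0.48 ± 0.52, which was -0.20 without Maltreated 3, 0.58 without Control 4 and -0.091 without both. PGK1 had -0.10 ± 1.41, which was -3.001 without Maltreated 3, -0.46 without Control 4 and -3.32 without both. Its sign turned when Maltreated 1, Maltreated 2, Control 1 or Control 2 was left out (0.26 to 0.43), with age as a covariate (0.90) and with total counts (0.036). The adjusted p in edgeR's quasi-likelihood test was 0.999 for each of the 6.

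The ratios of germ-cell over somatic isozyme were compared between the groups as well. With 3 against 4 libraries an exact two-sided permutation test cannot give a p under 0.0571. The log2 ratio of GAPDHS over GAPDH was 3.47 ± 2.17 (SD, n = 3) in Maltreated and 5.37 ± 1.75 (SD, n = 4) in Control sperm, a difference of -1.89 (exact permutation test, p = 0.286, adjusted p = 0.571 over 4 pairs). Without Maltreated 3 the difference was -0.66 and without Control 4 it was -2.74, the ends of the range with 1 library left out. PGK2 over PGK1 was 4.31 ± 3.28 (SD, n = 3) in Maltreated and 3.92 ± 2.68 (SD, n = 4) in Control sperm, a difference of 0.39 (exact permutation test, p = 0.857, adjusted p = 0.857) whose sign changed when Maltreated 1, Maltreated 2, Control 1 or Control 2 was left out. LDHC over LDHA was -1.50 ± 0.45 (SD, n = 3) in Maltreated and -0.74 ± 0.51 (SD, n = 4) in Control sperm, a difference of -0.75 (exact permutation test, p = 0.171, adjusted p = 0.571). LDHC over LDHB was 3.38 ± 0.80 (SD, n = 3) in Maltreated and 4.79 ± 2.46 (SD, n = 4) in Control sperm, a difference of -1.41 (exact permutation test, p = 0.457, adjusted p = 0.610). None of the 4 differences passed the test.

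The rest of the pathway was read from 4 lists. Glucose entry and phosphorylation holds 12 genes, upper glycolysis 12, lower glycolysis 10, and lactate and pyruvate handling 16, all of them in the files. Of these, 8, 8, 9 and 10 passed the filter and 0 were called. Their median log2 fold changes were -0.12, 0.16, 0.40 and 0.14, against -0.02 over all genes tested. Of the 50 genes, 49 had a lower level than GAPDHS in every library, by deposited counts without correction for repeated exons. The exception was PGAM2, the muscle form of phosphoglycerate mutase, which acts right after phosphoglycerate kinase. PGAM2 stood at 585, 84.7 and 78.9 CPM per kb in Maltreated 1 to 3 and at 54.4, 87.2, 128 and 77.4 in Control 1 to 4. Its log2 fold change of 1.53 ± 0.67 (SE) had an unadjusted p of 0.0438 and an adjusted p of 0.999 in edgeR's quasi-likelihood test, and without Maltreated 1 it was -0.14.

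Other genes named from the lists varied to different degrees. SLC2A14, a glucose transporter known from testis, had levels of 69.2, 113 and 78.9 CPM per kb in Maltreated and 124, 142, 84.5 and 105 in Control libraries. It has a close copy in SLC2A3, so reads may be shared and its level is uncertain. TPI1, triosephosphate isomerase, had 74.8, 71.7 and 95.0 in Maltreated and 66.6, 40.4, 73.5 and 102 in Control libraries. PDHX, a structural component of the pyruvate dehydrogenase complex, had 120, 101 and 91.0 in Maltreated and 73.8, 58.7, 77.3 and 106 in Control libraries. All 3 exceeded LDHC in 7 of 7 libraries. PFKP, a phosphofructokinase, had 79.3, 136 and 28.9 in Maltreated and 44.8, 23.7, 65.5 and 31.2 in Control libraries. HK2, a hexokinase, ranged from 1.74 to 6.97 in Maltreated and from 0.437 to 2.39 in Control libraries. Neither passed the test, with unadjusted edgeR p of 0.0909 for PFKP and 0.134 for HK2.

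Unlike GAPDHS over GAPDH, the germ-cell form did not exceed the somatic form in every library in the pairs ENO4/ENO1, PDHA2/PDHA1 and LDHAL6B/LDHA. This does not hold for every such gene. SLC2A14, at 69.2 to 142 CPM per kb, was above SLC2A3, at 7.57 to 34.5, in each library, though the 2 may share reads. ENO4, an enolase of the sperm tail, had levels of 2.85, 4.16 and 3.71 CPM per kb in Maltreated and 3.64, 2.29, 2.05 and 0.066 in Control libraries. Somatic ENO1 had 30.97, 29.5 and 74.2 in Maltreated and 36.3, 56.3, 26.3 and 46.6 in Control libraries, so the somatic form was higher in each library. PDHA2, the testis form of the pyruvate dehydrogenase E1 alpha subunit, had 50, 67 and 4 reads in Maltreated and 30, 16, 12 and 0 in Control libraries. Somatic PDHA1 had 192, 3 and 48 reads in Maltreated and 24, 15, 0 and 3 in Control libraries, so neither form led throughout. LDHAL6B, a further lactate dehydrogenase gene without introns, had 37, 0 and 4 reads in Maltreated and 9, 18, 3 and 0 in Control libraries, each far below LDHA.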

How the data were processed

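Total RNA of 7 rhesus macaque sperm samples was analysed, 3 Maltreated and 4 Control, with groups from the labels. STAR, featureCounts and bedtools are named, per the submitters' processing notes, without role or version. No source used here names the genome build. The deposited files hold, for each exon and strand, a count of reads without normalisation and the covered fraction. A table of the whole series, as deposited, holds both per gene, and its counts equalled the sums over exons in each of the 7 libraries, so a read on several exons counts on each. No column of sample values lacked a sample. RTN3 and ZC3HAV1, listed on both strands, were left out.

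The 7 genes, the lists and the tests were chosen with earlier results of these data known. Genes always described are the 7 isozymes, the named partners ENO4/ENO1, PDHA2/PDHA1 and LDHAL6B/LDHA, and from each list the gene with the highest mean level and that with the smallest unadjusted p. For each isozyme the 2 genes with the highest Pearson r of log2 CPM (prior count 2) were named. Sense counts were divided by merged exon length and scaled to the sum of sense counts (CPM per kb). Within a library the log2 ratio of a pair (0.5 reads added) and the difference in covered fraction were tested by two-sided exact sign-flip permutation over 7 libraries, adjusted by Benjamini-Hochberg over 8 tests, with a call at an adjusted p of at most 0.05. The groups were compared by exact permutation over 35 splits and, for all genes, with edgeR 4.0.16 in R 4.3.3. Settings were TMM, filterByExpr with minimum count 10 and total 15, the quasi-likelihood test and an adjusted p under 0.05. The fit was first run on simulated data. That run was required to recover only large changes at a smaller spread between libraries than here (common biological coefficient of variation 0.858). It does not show how small a change 3 against 4 libraries can detect. Depth of 5316383 to 30715268 sense counts limits low genes, and intervals and floors (3 reads per library) cover only counting error, because PCR copies cannot be told from separate molecules here. They also take a read counted on several exons as several reads. Alternatives covered scaling, DESeq2 1.42.0, limma 3.58.1 voom, filters, age, exons counted once, antisense subtraction, a block on the replicate number and leaving out libraries.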

Additional observations from a re-analysis of the deposited data

Results flagged for a closer look

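Among 29 sets of values, 6 held a library that stood apart from the rest of its set by Dixon's criterion. The criterion flags about 1 in 20 by chance only when sets are independent and normally distributed. These sets share genes and libraries, and many hold few and skewed values, so no excess over chance can be read from the 6. The GAPDHS covered percent, 100 in each Control library, had no spread and could not be flagged. PGK2 was at 80.6 CPM per kb in Control 4, against at most 16.6 in the other Control libraries. GAPDH was at 45.1 in Control 4, against at most 7.96 in the others, and leukocyte markers summed to 791 CPM in that library. LDHB was at 3.60 in Control 2, against at most 0.156 in the other Control libraries, and 22.6% of its bases were covered there, against at most 2.82%. LDHC was covered to 7.38% in Control 4, where its reads fell on 2 exons, against at least 47.9% in the other Control libraries. The germ-cell isozymes made up 61.1% of the summed level in Maltreated 3, against at least 86.9% in the other 6 libraries. With each GAPDH exon counted once the share was 68.2% there, against at least 91.1% in the other 6. Leukocyte markers summed to 1122 CPM in Maltreated 3. What part the leukocyte RNA has in these values was not tested.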

How the results depend on the processing

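The 4 pair ratios within a library kept their direction under every alternative run, with ranges over 1 library left out given below beside the values that changed call or sign. With the median over exons the log2 ratios were 3.13, 3.33, -1.54 and 2.32 for GAPDHS/GAPDH, PGK2/PGK1, LDHC/LDHA and LDHC/LDHB, none of which passed the adjusted threshold. Without Maltreated 3 and Control 4 together they were 5.61, 4.11, -0.99 and 4.12, and the covered differences of GAPDHS/GAPDH and LDHC/LDHB were 0.486 and 0.415, where 5 libraries cannot reach the threshold. Leaving out each library in turn gave log2 ratios of 4.21 to 5.15, 3.51 to 4.68, -1.21 to -0.91 and 3.77 to 4.69. The covered difference of GAPDHS/GAPDH was then 0.377 to 0.491, with an adjusted p of 0.0833 in 6 of the 7 cases, and that of LDHC/LDHA was -0.044 to 0.013. The share of exons with at least 10 reads gave differences of 0.896 for PGK2/PGK1 and -0.191 for LDHC/LDHA that passed the threshold. PGK2 is a single exon with at least 69 reads in each library, so its share is full by construction. PGK1 reads are spread over 11 exons, so the difference of 0.896 follows from exon number and is no evidence on coverage. For LDHC/LDHA the covered difference was 0.043 after antisense was subtracted and 0.024 without the 2 libraries together. Between groups, PGK2/PGK1 was -0.79 with the count above the lower neighbour, -0.39 with antisense subtracted and -0.69 to 2.27 with 1 library left out. LDHC/LDHB was 0.58 with the median over exons and 0.025 with antisense subtracted. The age covariate called 1 gene higher and DESeq2 called 3 genes lower. Among single genes PGK2 was 0.058 under voom and 0.30 without the 2 libraries, LDHA -0.091 without them, and PGK1 0.036 with total counts and 0.90 with age. With 1 library left out GAPDH ran from -0.39 to 3.22, PGK1 from -3.001 to 0.43, LDHA from -0.20 to 0.77, TPI1 from -0.041 to 0.35 and PGAM2 from -0.14 to 1.96. Same-numbered samples of the groups correlated at 0.0749, 0.0099 and -0.0194. Without differently numbered samples as a reference, these values do not settle whether the numbers pair samples, and the labels do not say. The edgeR fit with a replicate block called 0 genes, with 275 at an unadjusted p under 0.05. The median of all genes moved to 0.13 under voom and to -0.11 without Maltreated 3. Causes were not tested.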

Other observations

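The genes whose levels followed each isozyme most closely over the 7 libraries (Pearson r of log2 CPM, picked as the highest among 10719 genes, so high values are given by the choice) were RFTN1 (r = 0.966) and RMI2 (0.956) for GAPDHS. They were AKAP1 (0.986) and LDOC1L (0.972) for PGK2, and TRIML1 (0.966) and DOCK11 (0.965) for LDHC. For the somatic isozymes they were ZEB2 (0.985) and NRP2 (0.982) for GAPDH, NRIP1 (0.962) and PLK4 (0.940) for PGK1, and ATP6V0C (0.980) and ABCA1 (0.969) for LDHA. LDHB did not pass the filter and has no such genes.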
